A study of Mus musculus with 3 samples.

Results

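The hairpin precursor of miR-21a gives rise to 2 mature miRNAs, mmu-miR-21a-5p from its 5′ arm and mmu-miR-21a-3p from its 3′ arm. Both were taken by name from the 1138 mature mouse miRNAs listed for each library, so that 2 of 1138 are described here. Small RNAs of 18 to 30 nucleotides were sequenced from TA muscle (tibialis anterior, which lifts the foot) of wild-type C57BL/6 mice, 10 weeks old by the labels. The groups were day 0, day 1 and day 3 after injection of cardiotoxin (CTX), which comes from cobra venom and kills myofibers, after which the muscle regenerates. The labels mention saline as a control injection without saying whether the day 0 muscle received it, and they give the CTX volume and concentration in mL and mM where the methods give μl and μM. RNA of 4 samples was pooled into 1 library at each time point, so there were 3 libraries, no replicates and no estimate of the spread between mice.

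miR-21 is made in many cell types from a transcript that overlaps the gene Vmp1, and inflammatory and growth signals are known to raise its transcription. Of its arms, the 5p arm is the guide strand that is loaded into Argonaute and represses mRNAs such as Pdcd4. The 3p arm is the passenger strand, most of which is degraded after the duplex is unwound. In muscle and other tissues miR-21 is known for its rise after injury and in fibrosis. In whole muscle, more cells of a type and more RNA per cell cannot be told apart.

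The mature sequences are shown because the arms have different seeds (bases 2 to 8, in capitals), the part of a miRNA that pairs with its targets, and because close relatives of the 5p arm could share its reads. They are printed 5′ to 3′ from RefSeq on GRCm38.p6.
miR-21a-5p: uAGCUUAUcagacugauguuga
miR-21a-3p: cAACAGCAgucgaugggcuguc
miR-21b: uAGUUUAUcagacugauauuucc
miR-21c: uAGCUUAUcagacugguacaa
The Mir21a hairpin of 92 nucleotides lies on the minus strand of chromosome 11 from 86584067 to 86584158. miR-21a-5p spans 86584120 to 86584141 and miR-21a-3p spans 86584082 to 86584103. In the GENCODE annotation of the same build, the hairpin lies within exon 12 of the Vmp1 transcript Vmp1-201, in its 3′ untranslated region (86583865 to 86585310), on the same strand.

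Of the mouse miRNAs in the RefSeq table, 1 other, miR-21c, has the seed of miR-21a-5p, and 0 others have the seed of miR-21a-3p. The seed of miR-590-5p was not compared. Counted from 1 at the 5′ end of miR-21a-5p, miR-21b differs from it by C4U, G18A, G21U and A22C over 22 positions. miR-21c has the first 15 bases of miR-21a-5p and differs by A16G, G18A, U19C, U20A and G21A over 21 positions. Reads of miR-21b and miR-21c were not analysed here, and whether the counting assigned any of them to miR-21a-5p was not tested. miR-21a-5p begins with U and miR-21a-3p with C. Among 175 hairpins with RefSeq sequences for both arms and at least 10 reads of the arms together in each library, the arm with more reads began with U in 89 (50.9%) on day 0, and the arm with fewer reads began with C in 50 (28.6%).

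The libraries of days 0, 1 and 3 held 8507580, 6421056 and 9795076 reads. Levels are given as CPM, the reads of a miRNA per 1000000 reads of its library. A count of 3 reads, taken as the detection limit, corresponded to 0.306 to 0.467 CPM. For each pair of libraries the reads were tested with Fisher's exact test (two-sided), and p-values were adjusted by the Benjamini-Hochberg procedure over all miRNAs with a read in either library. A miRNA was called at a fold change of at least 2 and an adjusted p of at most 0.001. Such a test compares those libraries and not the conditions. Of 8 myofiber miRNAs, 5 were called lower and 0 higher on day 1, and 4 lower and 1 higher on day 3, beside 4.31% lower and 25.1% higher of all miRNAs on day 1 and 4.36% and 26.1% on day 3. Their levels summed to 274414, 91698 and 277533 CPM on days 0, 1 and 3, of which miR-206-3p held 180001 CPM on day 3. For miRNAs counted 10 or more times in each library of a pair, log2 fold changes over day 0 had a median of 0.90 on day 1 and 0.93 on day 3, and the changes of both arms are to be read against it.

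Both arms of miR-21a were higher in both injured libraries than on day 0, but on different courses. miR-21a-5p rose from day 0 to day 1 and again to day 3. miR-21a-3p rose more steeply to day 1 and was lower on day 3 than on day 1. The arm ratio therefore fell on day 1 and was partly restored on day 3.

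miR-21a-5p, the guide arm, was counted 32885, 122768 and 514881 times on days 0, 1 and 3. These counts correspond to 3865 CPM (95% Wilson interval 3824 to 3907) before injury, 19120 CPM (19014 to 19226) a day after it and 52565 CPM (52426 to 52705) by day 3. The 3 intervals do not overlap, and the order was day 0, day 1, day 3. In share of the library these levels were 0.387%, 1.91% and 5.26%. By reads miR-21a-5p ranked 29 among 784 detected miRNAs before injury, 12 among 915 on day 1 and 5 among 987 by day 3. Intervals cover counting error only, since PCR copies 1 molecule into many reads and each time point had 1 library.

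Relative to day 0, miR-21a-5p was 4.95-fold higher on day 1 (95% Wald interval 4.89 to 5.01; log2 fold change 2.31) and 13.6-fold higher on day 3 (13.4 to 13.8; log2 fold change 3.77). With other scalings the log2 fold change on day 1 was 1.36 (TMM factors), 1.26 (DESeq2's size factors) or 0.81 (3 reference miRNAs), the last being under the 2-fold threshold. On day 3 these values were 2.84, 2.65 and 2.78. miR-21a-5p was called higher on day 1, as were 25.1% of the 998 miRNAs tested, and on day 3, as were 26.1% of 1056. The call on day 1 was lost with the reference miRNAs, and also when a coefficient of variation of 0.4 was assumed (adjusted p = 0.065, edgeR's exact test). A call in this direction was thus frequent among all miRNAs, whereas 4.31% on day 1 and 4.36% on day 3 were called lower. Among all calls, 85.3% were higher on day 1 and 85.7% on day 3 with library totals, against 54.7% and 60.2% with edgeR's TMM factors, 49.4% and 54.4% when DESeq2's size factors were used, 67.6% and 73.3% when the 10 most abundant miRNAs were left out of the totals, and 35.4% and 58.1% with scaling to 3 reference miRNAs. For day 3 over day 1 the split was 57.3% with totals and 80.2% with reference miRNAs.

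In size, the rise of miR-21a-5p on day 1 was larger than that of 80.4% of the 393 miRNAs counted 10 or more times in each library, and on day 3 larger than that of 91.2% of 407. Its gain in share was 1.53 percentage points on day 1, which ranked 5 among all miRNAs after miR-126a-3p, miR-143-3p, miR-16-5p and miR-451a. On day 3 its gain of 4.87 percentage points ranked 2, after miR-206-3p with 16.8. It made up 11.3% of the summed gain of all miRNAs whose share rose by day 3.

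miR-21a-3p, the passenger arm, was counted 28, 2160 and 979 times on days 0, 1 and 3. It stood at 3.29 CPM (95% Wilson interval 2.28 to 4.76) before injury, 336 CPM (323 to 351) a day after it and 99.9 CPM (93.9 to 106) by day 3. Day 1 was the high library, day 3 lay between, and the intervals do not overlap. The day 0 level rests on 28 reads, so that folds over day 0 are less precise for this arm than for miR-21a-5p. Its ranks among detected miRNAs were 327, 108 and 165 on days 0, 1 and 3.

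The level of miR-21a-3p was 102-fold higher on day 1 than on day 0 (95% Wald interval 70.4 to 148; log2 fold change 6.68) and 30.4-fold higher on day 3 (20.9 to 44.2; log2 fold change 4.92). With the other scalings of reads these log2 fold changes were 5.18 to 6.70 and 3.81 to 5.00. It was called higher on both days, on day 3 with a Benjamini-Hochberg adjusted p of 2.2e-220 by Fisher's exact test. Among these 393 miRNAs its rise on day 1 ranked 3, and among 407 on day 3 it ranked 12. The corresponding ranks of miR-21a-5p were 77 and 36.

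**Figure D1:**
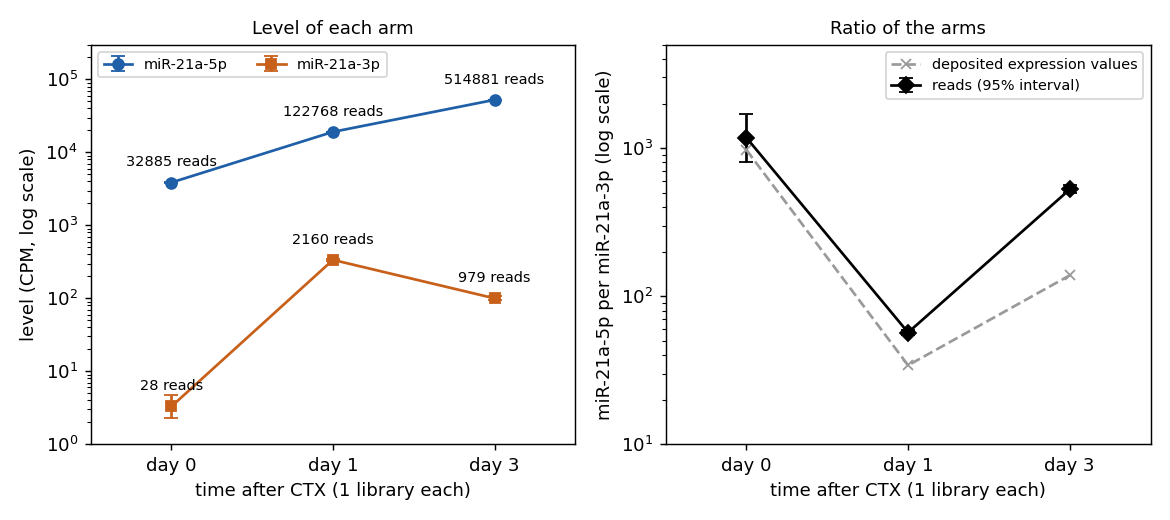
Level of each miR-21a arm in CPM on a log axis (left, points with 95% Wilson intervals, reads printed above) and reads of miR-21a-5p per read of miR-21a-3p on a log axis (right, diamonds with 95% intervals; crosses, the same ratio in the deposited expression values), in 1 library per day. miR-21a-5p rose through day 3 to 52565 CPM, miR-21a-3p was at its highest on day 1 with 336 CPM, and the ratio was lowest on day 1.

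The comparison of day 3 with day 1 does not involve the day 0 library or its low count. miR-21a-5p was 2.75-fold higher on day 3 than on day 1 (95% Wald interval 2.73 to 2.77; log2 fold change 1.46) and was called higher, as were 9.60% of 1104 miRNAs tested. miR-21a-3p was 3.37-fold lower on day 3 than on day 1 (3.12 to 3.63; log2 fold change -1.75; Benjamini-Hochberg adjusted p = 1.7e-238 by Fisher's exact test) and was called lower, as were 7.16%. With an assumed coefficient of variation of 0.4 neither arm was called (adjusted p = 0.56 and 0.40 for miR-21a-5p and miR-21a-3p, edgeR's exact test), and with 0.2 miR-21a-5p was not called (adjusted p = 0.0047). miR-21a was the 1 hairpin of 218 with at least 10 reads of both arms together in each library (0.459%) for which 1 arm was called higher and the other lower between these days. With TMM factors, median-of-ratios factors, totals without miR-21a or totals without the 10 most abundant miRNAs, this count was 1 as well, and miR-21a was that hairpin. It was 2 with scaling to reference miRNAs (miR-21a and let-7i) and with an adjusted p of 0.05 (miR-21a and miR-107). It was 0 with the fold change from the deposited expression values, scaled or unscaled, with a fold change of 4, and when a coefficient of variation between samples of 0.2 or 0.4 was assumed.

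Reads of the arms were set against each other within each library, where the scaling of the libraries has no part. There were 1174 reads of miR-21a-5p per read of miR-21a-3p on day 0 (95% Wald interval 811 to 1701), 56.8 (54.5 to 59.3) a day after injury and 526 (494 to 560) by day 3. Day 1 was low and its interval lay far from both others, and the interval of day 3 also lay below that of day 0. As a share of the reads of both arms, miR-21a-3p made up 0.0851% (95% Wilson interval 0.0589 to 0.123), 1.73% (1.66 to 1.80) and 0.190% (0.178 to 0.202) on days 0, 1 and 3. At the ratio of day 0, the 122768 reads of miR-21a-5p on day 1 would go with 105 reads of miR-21a-3p, and 2160 were counted. On day 3 the corresponding number was 438, and 979 were counted.

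The change of the ratio was tested for all 218 hairpins with the same thresholds by Fisher's exact test, applied to the 4 counts of both arms in both libraries. On day 1 the ratio of miR-21a fell by 4.37 on the log2 scale relative to day 0 (95% Wald interval -4.91 to -3.83; Benjamini-Hochberg adjusted p = 9.9e-175 by Fisher's exact test), a 20.7-fold shift toward miR-21a-3p. The deposited expression values gave -4.83, and the call was lost at an assumed coefficient of variation of 0.4 (adjusted p = 0.025, normal test across all hairpins with Benjamini-Hochberg adjustment). Shifts toward the 3p arm were called for 17 hairpins (7.80%), and that of miR-21a ranked 1 of these by size. The next largest shift in this direction among the called hairpins was that of miR-744, from 631 reads of its 5p arm and 95 of its 3p arm to 20 and 58. Over all 218 hairpins the median change was -0.07.

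On day 3 the ratio of miR-21a was lower than on day 0 by a smaller amount, with a change of -1.16 on the log2 scale (-1.70 to -0.62; Benjamini-Hochberg adjusted p = 1.1e-05 by Fisher's exact test). This call was lost when a coefficient of variation of 0.2 was assumed for each arm and library (adjusted p = 0.23, normal test across all hairpins with Benjamini-Hochberg adjustment), and the deposited expression values gave a change of -2.81. Shifts toward the 3p arm were called for 12.4% of hairpins, and that of miR-21a ranked 23 of these 27. From day 1 to day 3 the ratio rose by 3.21 on the log2 scale (3.10 to 3.32), a 9.25-fold shift back toward miR-21a-5p. The deposited expression values gave 2.02, and the call was lost when a coefficient of variation of 0.4 was assumed (adjusted p = 0.17, normal test across all hairpins with Benjamini-Hochberg adjustment). Shifts toward the 5p arm were called for 11.0% of hairpins between these days, and that of miR-21a ranked 5 of 24.

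**Figure D2:**
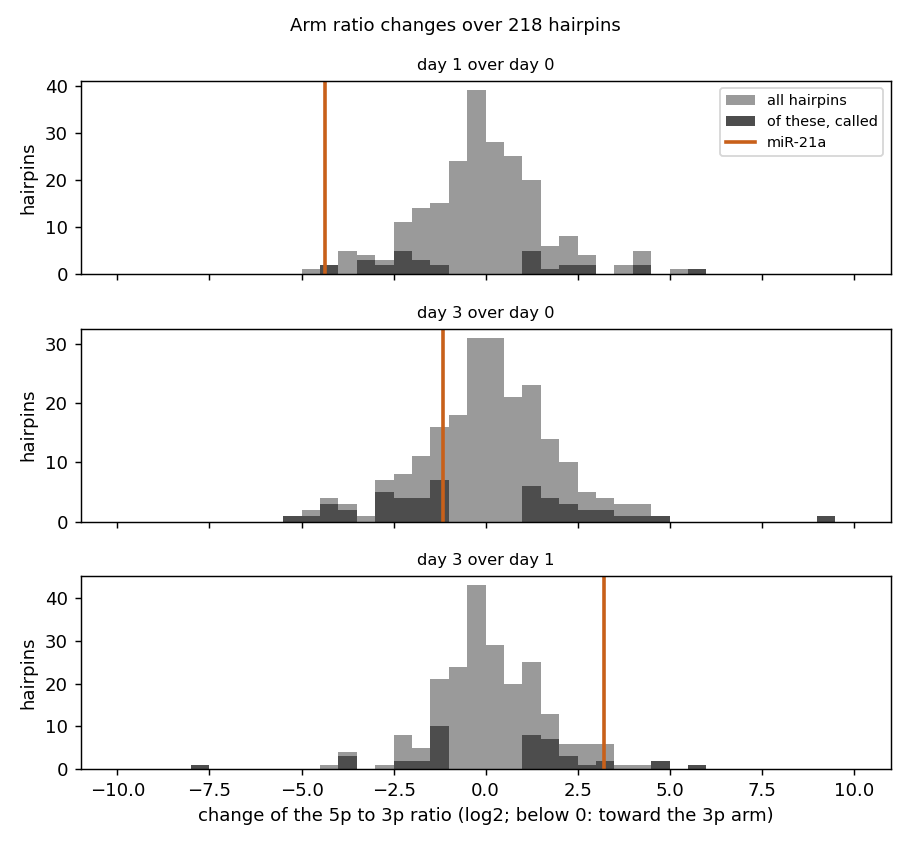
Change of the 5p to 3p read ratio (log2, in bins of 0.5) between each pair of libraries, as the number of hairpins of 218 (light bars, all; dark bars, those called), with miR-21a as a line. miR-21a lay near the end toward the 3p arm for day 1 over day 0 (-4.37), within the bulk for day 3 over day 0 (-1.16), and on the side of the 5p arm for day 3 over day 1 (3.21).

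Arms with different courses were not rare among hairpins, although most differed less. The library with the highest CPM differed between the arms for 85 of 218 hairpins (39.0%), and for 37 of the 100 in which each arm had at least 10 reads in each library. The course of miR-21a, with the 5p arm highest on day 3 and the 3p arm highest on day 1, was found for 12 of these 100, and the converse for 11. By size of the ratio change among these 100, miR-21a ranked 2 for day 1 over day 0, 36 for day 3 over day 0 and 6 for day 3 over day 1. The median share of the minor arm over 218 hairpins was 2.73%, 2.94% and 3.51% on days 0, 1 and 3, and the share of miR-21a-3p lay below it on each day. A smaller share than that of miR-21a was found for 22.9%, 39.4% and 16.5% of hairpins.

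The miRNAs with the most similar course were found for each arm by the Euclidean distance between log2 CPM values, centred over the 3 libraries, among 215 miRNAs with at least 100 reads in each library. With 3 points this is a description, and abundant and sparse miRNAs share the scaling of the libraries. miR-34a-5p, a miRNA induced by p53, was closest to miR-21a-5p at a distance of 0.11. Its levels were 1147, 5155 and 14370 CPM on days 0, 1 and 3, and its log2 fold changes over day 0 were 2.17 and 3.65. miR-501-3p (0.25), miR-652-3p (0.30), miR-20a-5p (0.53) and miR-17-5p (0.69) followed, and each of these was also highest on day 3.

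Among the 215 miRNAs compared, the courses closest to miR-21a-3p were those of 3 miRNAs of hematopoietic cells. miR-21a-3p itself had 28 reads on day 0, whereas other miRNAs with so few reads were not compared. Left out in this way was epithelial miR-200c-3p, with 38 reads on day 0 and log2 fold changes of 5.15 and 4.01 over day 0. miR-223-3p, which is abundant in neutrophils and monocytes, came first at a distance of 0.46, with 97.8, 7815 and 1896 CPM on days 0, 1 and 3. miR-142a-3p (0.54) and miR-142a-5p (0.98), both arms of a hairpin known from leukocytes, followed. miR-467a-5p, also highest on day 1, and miR-7a-5p, highest on day 3, were next, at distances of 2.02 and 2.21. The log2 fold changes of miR-21a-3p over day 0 had intervals of 6.14 to 7.21 on day 1 and 4.38 to 5.47 on day 3. For miR-223-3p the change on day 1 (6.32) lay within the first interval and that on day 3 (4.28) below the second. For miR-142a-3p the change on day 1 (6.06) lay below the first interval and that on day 3 (5.02) within the second. miR-21a-5p itself was at a distance of 3.20 from miR-21a-3p.

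**Figure D3:**
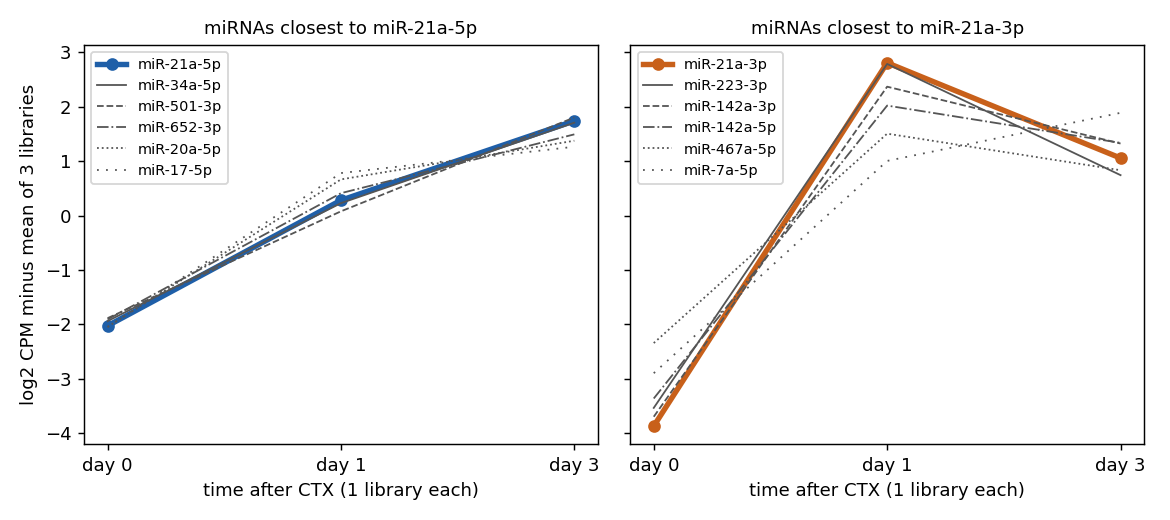
log2 CPM minus its mean over the 3 libraries for miR-21a-5p (left, thick line) and miR-21a-3p (right, thick line), each with the 5 miRNAs at the smallest distance among the 215 compared (thin lines). The neighbours of miR-21a-5p rose through day 3, whereas miR-21a-3p, miR-223-3p, both arms of miR-142a and miR-467a-5p were highest on day 1. miR-7a-5p, also drawn on the right, was highest on day 3.

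Marker miRNAs of other cell types differed in their courses, and some did not follow either arm. Over all miRNAs tested, 25.1% were called higher on day 1 and 26.1% on day 3 with library totals. With TMM, DESeq2's factors and reference miRNAs these shares were 12.9%, 11.8% and 9.22% on day 1, and 15.6%, 14.0% and 15.2% on day 3. Called lower with these scalings were 10.7%, 12.1% and 16.8% on day 1, and 10.3%, 11.7% and 11.0% on day 3. The counts of each list stand beside these shares. Of 7 leukocyte miRNAs, 5 were called higher on day 1 and 5 on day 3, with a median log2 fold change of 2.54 and 2.87 beside 0.90 and 0.93 over all miRNAs with at least 10 reads. Their levels summed to 5493, 21499 and 10003 CPM on days 0, 1 and 3, and 3 of the 7 (miR-223-3p, miR-142a-3p and miR-150-5p) were called lower on day 3 than on day 1, beside 7.16% of all. The other 4 were not called between these days, and of them miR-342-3p was at 0.47 and miR-146a-5p at 0.34 on the log2 scale. With reference miRNAs 1 of the 7, miR-223-3p, was called lower. With totals without miR-21a or totals without the 10 most abundant miRNAs 2 were. Relative to day 0, 5 of the 7 were called higher on both days with TMM and DESeq2's factors, and with reference miRNAs 4 on day 1 and 5 on day 3. Relative to day 0 with library totals, miR-150-5p was not called on day 3 (log2 fold change -0.57). This miRNA was called lower on day 3 with TMM, DESeq2's factors, reference miRNAs or totals without the 10 most abundant miRNAs. None of the 7 was at 0 reads in any library. miR-155-5p, a miRNA of activated leukocytes, was at 132 CPM, 225 CPM and 217 CPM on days 0, 1 and 3 and was not called.

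Of 6 stromal miRNAs, 3 were called higher and 1 lower on day 1, 4 higher and 1 lower on day 3, and their summed level was 4784, 6631 and 9099 CPM on days 0, 1 and 3. With TMM, DESeq2's factors or reference miRNAs 1 of the 6, miR-214-3p, was called higher on each day. Called lower with TMM or DESeq2's factors was 1 of the 6 on each day. With reference miRNAs 3 (miR-199a-5p, miR-29a-3p and miR-29c-3p) were called lower on day 1 and 1 on day 3. Both erythroid miRNAs were called higher on day 1 and neither on day 3, with sums of 7142, 25326 and 12560 CPM, and miR-451a was called lower on day 3 than on day 1 (-1.01). With TMM, DESeq2's factors or reference miRNAs neither erythroid miRNA was called higher on day 1. The fall of miR-451a was not called with TMM, reference miRNAs, totals without miR-21a or totals without the 10 most abundant miRNAs. All 5 epithelial miRNAs were called higher on both days from a summed level of 9.29 CPM on day 0, and 3 of them with TMM, DESeq2's factors or reference miRNAs. Of these 5, 1 (miR-200c-3p) was called lower on day 3 than on day 1, except with reference miRNAs. Of 4 vascular miRNAs, 3 were called higher on day 1 and 0 on day 3, and their sums were 94336, 196683 and 84074 CPM. With TMM, DESeq2's factors or reference miRNAs 0 of the 4 were called higher on day 1, and 3, 4 and 3 were called lower on day 3 than on day 0. All 4 were called lower on day 3 than on day 1 (median log2 fold change -1.47), and 2 of them with reference miRNAs. With library totals, calls of a fall after day 1 were thus found among leukocyte, vascular, erythroid and epithelial miRNAs alike. Of the 8 myofiber miRNAs, 1 (miR-499-5p, -1.19) was called lower and 2 higher between these days, and with reference miRNAs 0 lower and 2 higher. These counts under other scalings were added after the data were seen. The part of these cell types in the levels of either arm was not tested.

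Among 12 other miRNAs known from injured or inflamed tissue, 11 were called higher on day 1 and 10 on day 3. Their medians were 2.42 and 2.40 on the log2 scale. Of the 12, miR-146a-5p and miR-155-5p are also leukocyte miRNAs above, and miR-199a-3p and miR-214-3p are also stromal miRNAs above. Of all miRNAs tested 25.1% and 26.1% were called higher on these days, and the medians of those counted 10 or more times were 0.90 and 0.93. Between day 1 and day 3, 2 of the 12 were called higher and 2 lower, beside 9.60% and 7.16% of all. With TMM, DESeq2's factors and reference miRNAs 8, 7 and 5 of the 12 were called higher on day 1 and 6, 6 and 6 on day 3. Of all miRNAs, 12.9%, 11.8% and 9.22% were called higher with these scalings on day 1, and 15.6%, 14.0% and 15.2% on day 3. With reference miRNAs 4 of the 12 were called higher and 0 lower between day 1 and day 3, beside 15.0% and 3.71% of all. miR-34a-5p and miR-31-5p were the 2 called higher, with log2 fold changes of 1.48 and 5.28, and miR-132-3p and miR-212-3p, which come from 1 locus, were the 2 called lower, with -1.84 and -1.43. miR-21a-5p (1.46) was in this respect on the side of the former and miR-21a-3p (-1.75) on that of the latter. miR-146a-5p, a feedback inhibitor of NF-kB signalling, rose by 2.54 on day 1 and 2.87 on day 3.

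The size of the rise over day 0 depended on the scaling of the libraries, because a scaling moves all miRNAs of a comparison by 1 amount. TMM factors moved all log2 fold changes by -0.94 on day 1 and -0.93 on day 3, median-of-ratios factors by -1.04 and -1.12, and scaling to the geometric mean of miR-103-3p, miR-191-5p and miR-16-5p moved them by -1.50 and -0.99. With library totals these 3 were themselves called higher on day 1, with log2 fold changes of 1.45, 1.20 and 1.84. Of the 3, 2 were called higher on day 3. TMM or median-of-ratios factors left 0 of the 3 called on either day. When the 10 most abundant miRNAs were left out of the totals, 1 was called on day 1 and 0 on day 3. With scaling to the 3 reference miRNAs, miR-21a-5p on day 1 was at 0.81 on the log2 scale and was not called. Per 100 reads of miR-16-5p there were 36.4, 50.4 and 234 reads of miR-21a-5p on days 0, 1 and 3, and per 100 reads of miR-191-5p there were 56.1, 121 and 459. Over all scalings of the reads, miR-21a-5p changed by 0.81 to 2.33 on day 1 and 2.65 to 3.84 on day 3 on the log2 scale. For day 3 over day 1 the values were 1.38 to 1.97 for miR-21a-5p and -1.83 to -1.24 for miR-21a-3p, so that the arms kept opposite directions under each.

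**Figure D4:**
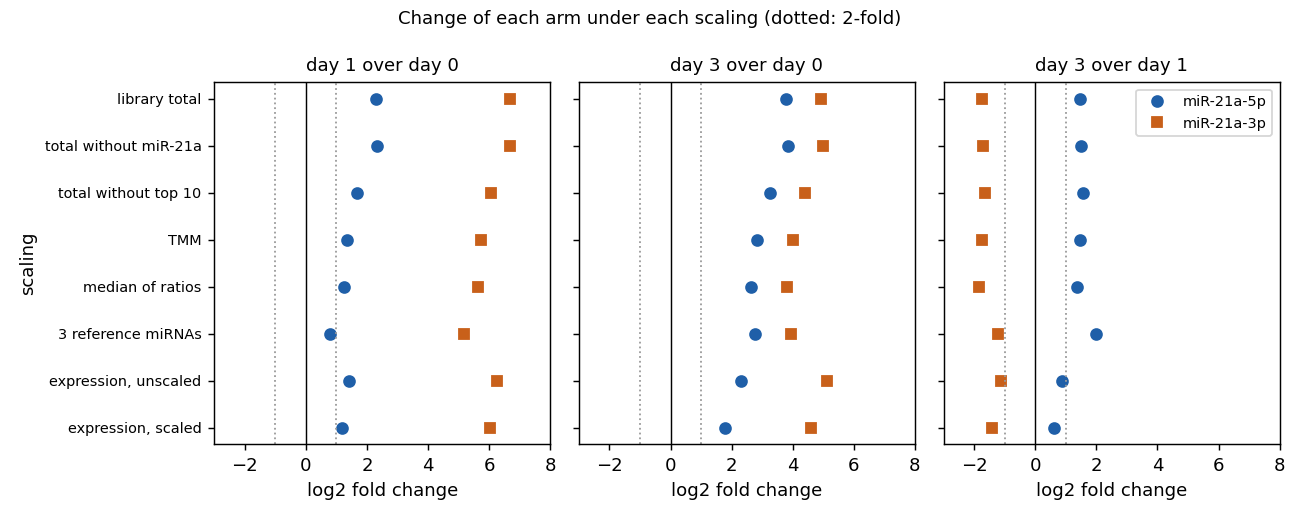
log2 fold change of miR-21a-5p (circles) and miR-21a-3p (squares) for each pair of libraries under 8 scalings or units; dotted lines mark a 2-fold change. For day 3 over day 1 the circles lie above 0 and the squares below 0 in every row, and the lowest circle for day 1 over day 0 (0.81, reference miRNAs) lies inside the dotted lines.

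Beside the reads, an expression value was deposited for each miRNA, a whole number that did not exceed the read count for either arm. For miR-21a-5p it was 27192, 72536 and 134075 on days 0, 1 and 3, which is 82.7%, 59.1% and 26.0% of the reads. Other miRNAs within 2-fold of its reads had medians of 79.6%, 62.7% and 32.8%, so that a lower percentage at a higher read count was not particular to miR-21a-5p. For miR-21a-3p the expression value was 28, 2126 and 970, or 100%, 98.4% and 99.1% of the reads. The rise of the abundant arm was therefore smaller in these values, with log2 fold changes of 1.42 on day 1 and 2.30 on day 3 without scaling, whereas those of miR-21a-3p were 6.25 and 5.11. Relative to the summed values, tried after the data were seen, they were 1.19 and 1.79 for miR-21a-5p. For miR-21a-3p they were 6.02 and 4.60. For day 3 over day 1 miR-21a-5p was at 0.89 without scaling and was not called. The ratio of the arms in the expression values was 971, 34.1 and 138 on days 0, 1 and 3, with the order of the days as in the reads.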

How the data were processed

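Small RNA libraries of TA muscle on days 0, 1 and 3 after CTX, each from 4 pooled samples, were sequenced on the BGISEQ platform. The authors screened clean reads against GRCm38.p6, and HISAT and Bowtie2 are named in the submitters' processing notes without versions. The program that counted reads per miRNA is not given in the sources used here. The authors deposited a read count per mature miRNA, without normalization, and an expression value, treated as a score because how it was made is not stated.

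Counts were scaled to library totals (CPM). With 1 library per group, edgeR's quasi-likelihood test could not be fitted. Fisher's exact test was used, with p-values adjusted (Benjamini-Hochberg) over all miRNAs tested, at the study's thresholds (adjusted p of 0.001, fold change of 2). Arm ratios were tested over 218 hairpins, and 0.5 was added to each count of a hairpin with a count of 0. Both scripts were tested on simulated data. Other scalings used edgeR's TMM and DESeq2's size factors with an exact binomial test. Where a spread between samples was assumed (coefficient of variation, 0.2 or 0.4), edgeR's exact test was run on the levels. The arm ratios were then given a normal test. The members, marker lists and tests were chosen with earlier results of these data known. Named miRNAs were both arms, those sharing a seed, the 5 nearest in course, the reference miRNAs and the most abundant list members, and any other miRNA, named beside a rank or a count of 5 or fewer, was chosen after its values were seen. Of 1138 names, 953 matched RefSeq. Factors came from edgeR 4.0.16 and DESeq2 1.42.0 in R 4.3.3, and tests from scipy 1.17.1 in Python 3.11.15.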

Additional observations from a re-analysis of the deposited data

How the results depend on the processing

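Of 93 values of the arms and their ratio under alternatives, 80 kept their direction and side of the thresholds. Another 13 kept their direction but were no longer called, and 0 reversed. Many of the 93 could not have reversed. Alternatives that changed only a threshold, a read minimum or the assumed spread left the log2 value as it was. A constant added to both levels cannot change a direction, and a looser adjusted p threshold cannot remove a call. Only the other scalings and the deposited expression values could have reversed a direction. For miR-21a-5p on day 1 over day 0 the call was lost with reference miRNAs (0.81 on the log2 scale) and with an assumed coefficient of variation of 0.4 (2.31, adjusted p = 0.065 from edgeR's exact test). For day 3 over day 1 the call of miR-21a-5p was lost with the deposited expression values (0.89 unscaled, and 0.60 relative to the summed values, which was tried after seeing the data). It was also lost with a fold change of 4 (1.46) and with a coefficient of variation of 0.2 or 0.4 (1.46, adjusted p = 0.0047 and 0.56), and that of miR-21a-3p with a fold change of 4 or a coefficient of 0.4 (-1.75, adjusted p = 0.40 for the latter). For the arm ratio, a normal test with an assumed coefficient of variation for each arm and library was added after the data were seen. With a coefficient of 0.4 the calls were lost on day 1 over day 0 (-4.37, adjusted p = 0.025), day 3 over day 0 (-1.16, 0.91) and day 3 over day 1 (3.21, 0.17), and with 0.2 that of day 3 over day 0 (-1.16, 0.23).

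The background moved with the scaling and the assumed spread. The 250 miRNAs called higher on day 1 became 129 with TMM, 118 with median-of-ratios and 92 with reference miRNAs, and 162 and 28 with a coefficient of 0.2 and 0.4. The 276 of day 3 became 165, 148, 161 and, with 0.4, 54. The 106 of day 3 over day 1 became 166 with reference miRNAs, 63 with a fold change of 4, and 60 and 9 with 0.2 and 0.4. Those called lower ranged from 1 to 168, 0 to 124 and 3 to 109. No paired analysis was possible because each time point had 1 library. Pooling the reads of miR-21a-5p with those of miR-21b and miR-21c could not be run. The 28 reads of miR-21a-3p on day 0 limit its folds over day 0.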
